A study of Danio rerio with 20 samples.

Results

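Zebrafish embryos exposed to 1 mg/L HFPO-DA (hexafluoropropylene oxide-dimer acid, also called GenX, a perfluorinated ether acid) were compared with untreated embryos, using 7 pools of whole embryos of the 19 pools whose values were analysed. The 4 exposed pools are those labelled 1 mg/L, a to d, and the 3 control pools are those labelled control, a to c. All embryos came from AB strain fish, were housed singly in wells and were collected at 72 hpf (hours post fertilization). Exposed embryos were kept in pH-neutralized HFPO-DA from the sphere stage on, with part of the solution renewed every day, and control embryos were kept in embryo water alone. Each pool held 9 or 10 embryos, so a value describes a mixture of all tissues. Fewer cells of a type and less RNA per cell cannot be told apart in such pools. The other exposed pools of the study, 12 in number (0.5, 2 and 10 mg/L), served for 1 further comparison, and control pool d, which its label calls an outlier, was left out.

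Several organs start to work at about this age. Cone photoreceptors of the larval retina hold an opsin, a visual pigment, in stacked outer segment membranes, and light on the opsin starts a cascade in which the G protein transducin activates the phosphodiesterase PDE6 and lowers cGMP. Rods use the same cascade with their own copies of its parts. Skeletal muscle, lens fibre cells, epidermis and the liver contribute much of the remaining specialised RNA, and ribosomal proteins are made in every growing cell.

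Values were TMM-normalized expression with 9368 genes listed. The exposed pools held 137539, 149257, 185581 and 581494 reads on genes (a to d), and the control pools held 395594, 274326 and 345832 (a to c). The value of 1 read was 0.462 to 1.92 in exposed pools and 0.709 to 0.919 in control pools, so a low value moves in steps of single reads. Genes with a mean of at least 50 over the 7 pools are called well covered here. There were 745 of them, with at least 360 reads in the 7 pools together and a median of 830 reads, against a median of 88 reads over all genes tested. Defining genes of the tissues were looked for first. Of 25 tissue markers in the table, 19 had reads in all 7 pools, among them genes of retina, lens, muscle, skin, liver, pigment cells and cartilage. The cardiac gene myl7, the pancreatic proteases prss59.1 and ela2l, the cartilage gene col2a1a and the neuronal gene snap25a were near the limit of detection, and the hatching gland gene he1a had reads in 3 pools.

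No gene passed the threshold. In limma, 0 of the 5329 genes tested had a Benjamini-Hochberg adjusted p under 0.1 (0%), and the lowest adjusted p was 0.718. At an unadjusted p under 0.05 there were 52 genes higher at 1 mg/L (0.976% of genes tested) and 138 genes lower (2.59%), 190 in all, where about 266 would be expected with no change in any gene. edgeR on the recovered reads also called 0 genes, with 204 at an unadjusted p under 0.05, as did DESeq2, with 55. Leaving out exposed pool a, limma and edgeR each called 1 gene, hsp90aa1.2 (adjusted p = 0.0219 and 0.038). edgeR also called ldb3a without exposed pool d (adjusted p = 0.0798), and apoa2, prph2a and ptgdsb.2 without control a (adjusted p = 0.0242, 0.0363 and 0.0363). The count at an unadjusted p under 0.05 was 286 without exposed pool d and 122 without control c. The share of higher genes depended on the processing. The median log2 difference of all genes tested was -0.06 with the deposited scaling, and 27.4% of the 190 genes were higher. After quantile normalization, with a median of -0.0028, the split was 104 higher and 114 lower, and with edgeR, with a median of 0.0049, it was 92 higher and 112 lower. Rescaling to CPM changed it little, to 58 higher and 131 lower. Without a filter on low values, over 8834 genes, limma gave 210 higher and 161 lower, with a median of 0.04. With a mean above 10, over 2847 genes, it gave 23 higher and 82 lower. Differences below are on the log2(value + 0.5) scale of the deposited values, as 1 mg/L minus control.

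Among the 745 well-covered genes, all 4 exposed pools lay above all 3 control pools for 5 genes (0.671%) and below them for 21 genes (2.82%). After quantile normalization there were 11 above and 18 below. Those below included genes of cones, synapses, the vacuolar proton pump and chaperones. Those above were ldb3a, gamt, lasp1, ctsd and psma4. With 4 against 3 pools, some genes without any change also separate in this way. The share to be expected was not computed, so the counts of 5 and 21 are a description. Here and below, groups that do not overlap do not by themselves mark a gene as changed. The plot of difference against level shows that the cone genes lie low at every level, also among genes with many reads.

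**Figure D1:**
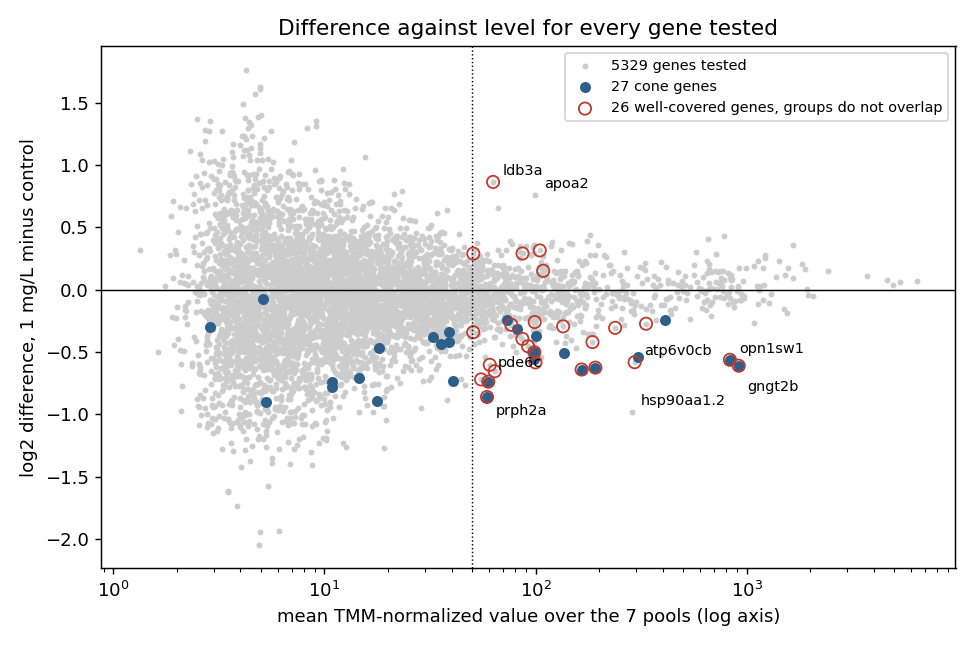
Log2 difference between 1 mg/L and control (vertical axis) against the mean TMM-normalized value over the 7 pools (horizontal axis, log scale) for the 5329 genes tested; blue points are the 27 cone genes, red rings the 26 well-covered genes whose groups do not overlap, and the dotted line marks a mean of 50. All 27 cone genes lie below 0, and 21 of the 26 ringed genes do.

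Genes of the cone cascade were lower in mean at 1 mg/L than in control. All 27 tested cone genes had a difference below 0, with a median of -0.55 and a range from -0.90 to -0.07, and 12 of the 27 were lower at an unadjusted p under 0.05. Of all 5329 genes tested, 57.6% had a difference below 0 and 2.59% were lower at that p. Of the 36 cone genes listed in the table, 9 were too low to be tested. The summed value of the 27 tested cone genes was 3446, 3397, 2871 and 3076 in exposed pools a to d. It was 3973, 4810 and 5046 in control pools a to c. All 4 exposed pools were therefore below the lowest control pool, which was control a. The median was between -0.64 and -0.46 when any 1 pool was left out, and it was -0.48 after quantile normalization and -0.48 with edgeR. The genes of this list were chosen with earlier results on the same pools known, and no test was made of the list as a whole.

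Cone opsins mark the 4 spectral types of cone. opn1sw1, the ultraviolet opsin, had values of 673, 801, 637 and 657 in the exposed pools and 954, 1007 and 1102 in the control pools. Its groups did not overlap, and its difference was -0.56 (standard error 0.16, adjusted p = 0.718 in limma). opn1sw2, the blue opsin, had values of 167, 108, 118 and 142 in exposed pools against 177, 213 and 233 in control pools, a difference of -0.64 (standard error 0.18). The green opsin opn1mw1 was at 313, 276, 209 and 219.9 in exposed pools and at 289, 397 and 429 in control pools. Exposed pool a was thus above control a, and the difference was -0.55 (standard error 0.18). For the red opsin opn1lw2 the exposed pools were at 351, 422, 291 and 463 and the control pools at 362, 485 and 506. Its groups overlapped widely, with a difference of -0.25 (standard error 0.18). The ultraviolet and blue opsins were thus the ones whose groups stayed apart. Whether the opsins differed from each other was not tested.

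Genes that carry the signal on from the opsins had differences of similar size. gngt2b, a gamma subunit of cone transducin and the cone gene with the most reads, was at 856, 789, 727 and 625 in exposed pools and at 1014, 1196 and 1212 in control pools (difference -0.61, standard error 0.16). gnat2, the alpha subunit of cone transducin, was at 154, 171, 167 and 129 in exposed pools and at 194, 248 and 282 in control pools (difference -0.63, standard error 0.18). The groups of neither gene overlapped, and all exposed pools were below control a, the lowest control pool in both. pde6c, the catalytic subunit of cone PDE6, was at 49.9, 45.4, 47.6 and 41.1 against 59.6, 89.1 and 85.7, a difference of -0.74 (standard error 0.21). Its inhibitory partner pde6hb, found in the table under a clone name, was at 102, 90.8, 73.5 and 70.24 against 108, 125 and 122, a difference of -0.50 (standard error 0.19). Both PDE6 subunits therefore lay below all control pools. arr3a, a cone arrestin, which ends the response, was at 148, 115, 89.4 and 110.0 against 142, 181 and 166 (difference -0.51, standard error 0.19), with exposed pool a above control a.

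The outer segment itself is shaped by the rim protein peripherin. prph2a, which encodes it, had the most negative difference of the well-covered genes whose groups did not overlap. It was at 36.5, 50.6, 43.3 and 42.0 in exposed pools and at 57.4, 93.7 and 88.9 in control pools, a difference of -0.86 (standard error 0.22, adjusted p = 0.718 in limma). The second copy, prph2b, was less well covered and was named after its values were seen. Its values of 28.8, 38.4, 20.2 and 40.2 lay below 42.5, 51.5 and 62.1, a difference of -0.73 (standard error 0.25).

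Rod genes were lower in mean, but their groups overlapped. Of 9 rod genes tested, 8 had a difference below 0, with a median of -0.53, and 3 were lower at an unadjusted p under 0.05, against 57.6% and 2.59% of all genes tested. rho, the rod opsin rhodopsin, was at 280.1, 342, 284 and 409 in exposed pools and at 355, 491 and 591 in control pools (difference -0.53, standard error 0.18). Exposed pool d exceeded control a. gngt1, the gamma subunit of rod transducin, was at 48.0, 54.1, 43.3 and 44.8 against 50.3, 81.8 and 80.2, again with an overlap at control a (difference -0.54, standard error 0.22). Without control c the median of the rod list was -0.28, and without control a it was -0.73.

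Other parts of the eye lay closer to the median of all genes tested. The 34 tested lens crystallins, the proteins that fill lens fibre cells, had a median of -0.03, with 13 above 0 and 21 below 0. Transcription factors of the retina had a median of -0.12 over 14 genes (0.07 without exposed pool c), and none of them had an unadjusted p under 0.05. crx, which drives photoreceptor genes, was at 118.96, 101, 88.0 and 123 in exposed pools and 88.6, 136 and 123 in control pools, a difference of -0.10 (standard error 0.19). neurod1, a proneural factor also found in photoreceptor precursors, had a difference of 0.03 (standard error 0.21). Melanophore genes, read also in the pigment epithelium behind the retina, had a median of 0.06 over 6 genes. The retinoid list, which covers the vitamin A chemistry that renews the visual pigment, had a median of -0.19 over 18 genes, and of -0.06 after quantile normalization. Its leading gene was rbp4l, a retinol-binding protein gene, at 92.1, 92.5, 77.9 and 66.5 in exposed pools against 115, 109 and 146 (difference -0.58, standard error 0.19), whereas rpe65a, the isomerase of the cycle, had overlapping groups and a difference of -0.33 (standard error 0.20).

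**Figure D2:**
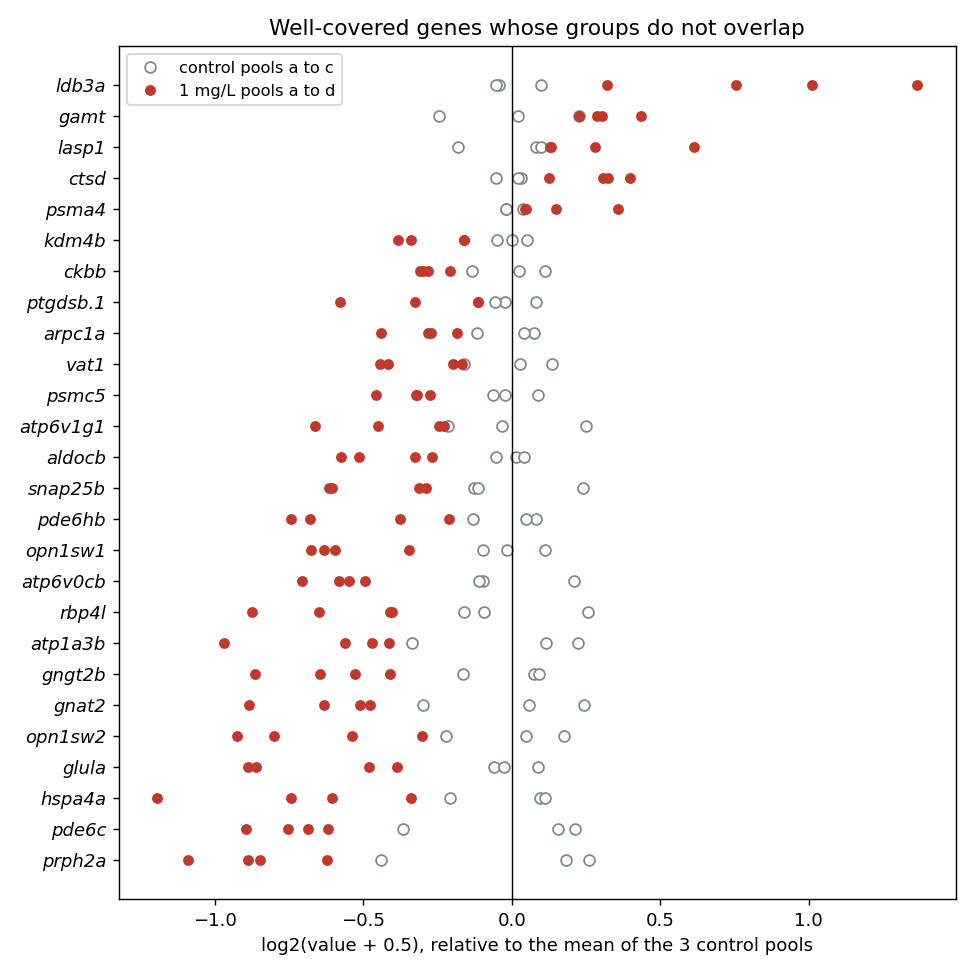
log2(value + 0.5) of each pool relative to the mean of the 3 control pools, for the 26 well-covered genes whose exposed pools (red) and control pools (open circles) do not overlap. The control pools of prph2a, pde6c and gnat2 are spread widely, with control a nearest to the exposed pools, while those of ctsd, glula and aldocb lie close together.

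Genes of nerve endings were lower in mean than in control pools, with smaller differences. The list of synaptic vesicle and release genes had 26 of 30 tested members below 0, a median of -0.27, 6 members lower and 1 higher at an unadjusted p under 0.05 (57.6% of all genes tested were below 0, 2.59% lower and 0.976% higher). snap25b, a SNARE protein of vesicle fusion, was at 71.0, 87.3, 70.7 and 88.7 in exposed pools and at 99.3, 100.2 and 128 in control pools (difference -0.46, standard error 0.19). atp1a3b, a neuronal alpha subunit of the sodium pump, was at 53.7, 55.9, 50.5 and 37.9 against 80.8, 87.3 and 59.0 (difference -0.60, standard error 0.21). Neither gene's groups overlapped. For atp1a3a, a better covered gene of the same kind of subunit, they did, at 227 to 320 in exposed pools and 224 to 369 in control pools (difference -0.19, standard error 0.18). vat1, homologous to a synaptic vesicle membrane protein, was at 196, 237, 232 and 199.6 against 272, 293 and 238, a difference of -0.31 (standard error 0.16). Other members overlapped with control a: nsfa, the ATPase that takes SNARE complexes apart, had a difference of -0.54 (standard error 0.22), and syt5b, a synaptotagmin, one of -0.53 (standard error 0.21). The summed value of the synaptic list was 1982 in control a, within the exposed range of 1850 to 2044, and 2685 and 2529 in control b and c.

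Neuronal genes outside the synapse were mixed. Among 26 genes of axon growth and the neuronal cytoskeleton the median was -0.06, the same as that of all genes tested. marcksl1a and marcksl1b, abundant genes of growing neurites, had differences of 0.01 (standard error 0.16) and -0.07 (standard error 0.16). In the same list dpysl5b, a collapsin response mediator, and cdk5r2a, an activator of the neuronal kinase Cdk5, were at 19.2 to 34.6 and 11.5 to 27.4 in exposed pools, against 36.2 to 60.5 and 33.3 to 47.2 in control pools. Both were named after their values were seen. Their groups did not overlap, and their differences were -0.89 (standard error 0.25) and -0.95 (standard error 0.28). The neural progenitor list had a median of -0.14 over 27 genes, -0.09 after quantile normalization and -0.03 with edgeR. The list had a median between -0.26 and -0.07 when any 1 pool was left out. Its best covered members, the transcription factors sox11a, sox4a and sox11b, had overlapping groups and differences of -0.03, 0.11 and -0.14. The GABA list had a median of -0.30 over 7 genes (-0.14 without exposed pool b) with overlapping summed values of 286 to 368 and 327 to 451.

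Glial genes had a median of -0.38 over 10 genes, and of -0.21 without exposed pool c. Of the 10, 8 were below 0, against 57.6% of all genes tested. Their summed values overlapped, at 737 to 921 in exposed pools and 905 to 1073 in control pools. The best covered member, fabp7a, also overlapped, at 518 to 658 against 609 to 732 (difference -0.15, standard error 0.16). glula, which encodes glutamine synthetase, the glial enzyme that turns glutamate into glutamine, was at 44.1, 57.6, 43.3 and 61.5 in exposed pools and at 77.3, 79.0 and 85.7 in control pools. The control pools were close together and all above the exposed pools, with a difference of -0.66 (standard error 0.20). For cx43, a gap junction protein of astroglia and other cells, the groups overlapped (difference -0.38, standard error 0.22).

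The vacuolar proton pump (V-ATPase) acidifies lysosomes and loads synaptic vesicles. Over 31 genes of the pump and the lysosome the median was -0.20 (-0.11 without control c), and the summed value was 1026, 1029, 998 and 1112 in exposed pools against 1249, 1200 and 1331 in control pools, with no overlap. Most of that gap lay in the best covered member, and without that gene the summed values of the groups overlap. atp6v0cb, a subunit of the membrane ring, was at 257, 248, 222 and 242 in exposed pools and at 419, 339 and 336 in control pools, a difference of -0.58 (standard error 0.16, adjusted p = 0.718 in limma). atp6v1g1, a subunit of the stalk, was at 72.9, 62.8, 85.1 and 84.1 against 85.8, 97.4 and 118.7, where the gap between the groups was less than the value of 1 read in exposed pool c. The lysosomal protease gene ctsd went the other way, with 55.6, 59.4, 49.0 and 56.4 in exposed pools and 43.2, 45.9 and 45.6 in control pools (difference 0.29, standard error 0.20).

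Chaperone genes had 30 of 35 tested members below 0, a median of -0.20 and 6 members lower at an unadjusted p under 0.05, against 57.6% and 2.59% of all genes tested. The most abundant members did not carry this: hsp90ab1, the constitutive cytosolic Hsp90, had a difference of -0.05 (standard error 0.17), and hspa8, the constitutive Hsp70, of -0.11 (standard error 0.16). hsp90aa1.2, an Hsp90 alpha gene, was at 357, 196, 193 and 104 in exposed pools and at 413, 386 and 353 in control pools. Its difference of -0.98 (standard error 0.24, adjusted p = 0.718) was the most negative of the well-covered genes, and exposed pool a lay within the control range. Without exposed pool a it was called by limma (adjusted p = 0.0219, difference -1.28). hspa4a, a nucleotide exchange factor for Hsp70, was at 55.6, 41.9, 46.1 and 30.5 against 61.0, 75.4 and 76.3, with no overlap (difference -0.72, standard error 0.22). The mitochondrial chaperonin hspd1 overlapped at exposed pool c (difference -0.40, standard error 0.18). hsp70l, a strongly inducible Hsp70 gene, had 59 reads in all 7 pools and values of 2.88 to 6.98 in exposed pools against 9.93 to 12.6, and was named after its values were seen. Genes of the unfolded protein response of the endoplasmic reticulum had a median of -0.19 over 20 genes, which was -0.08 without exposed pool d, and xbp1, its transcription factor, had a difference of 0.0045 (standard error 0.17).

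**Figure D3:**
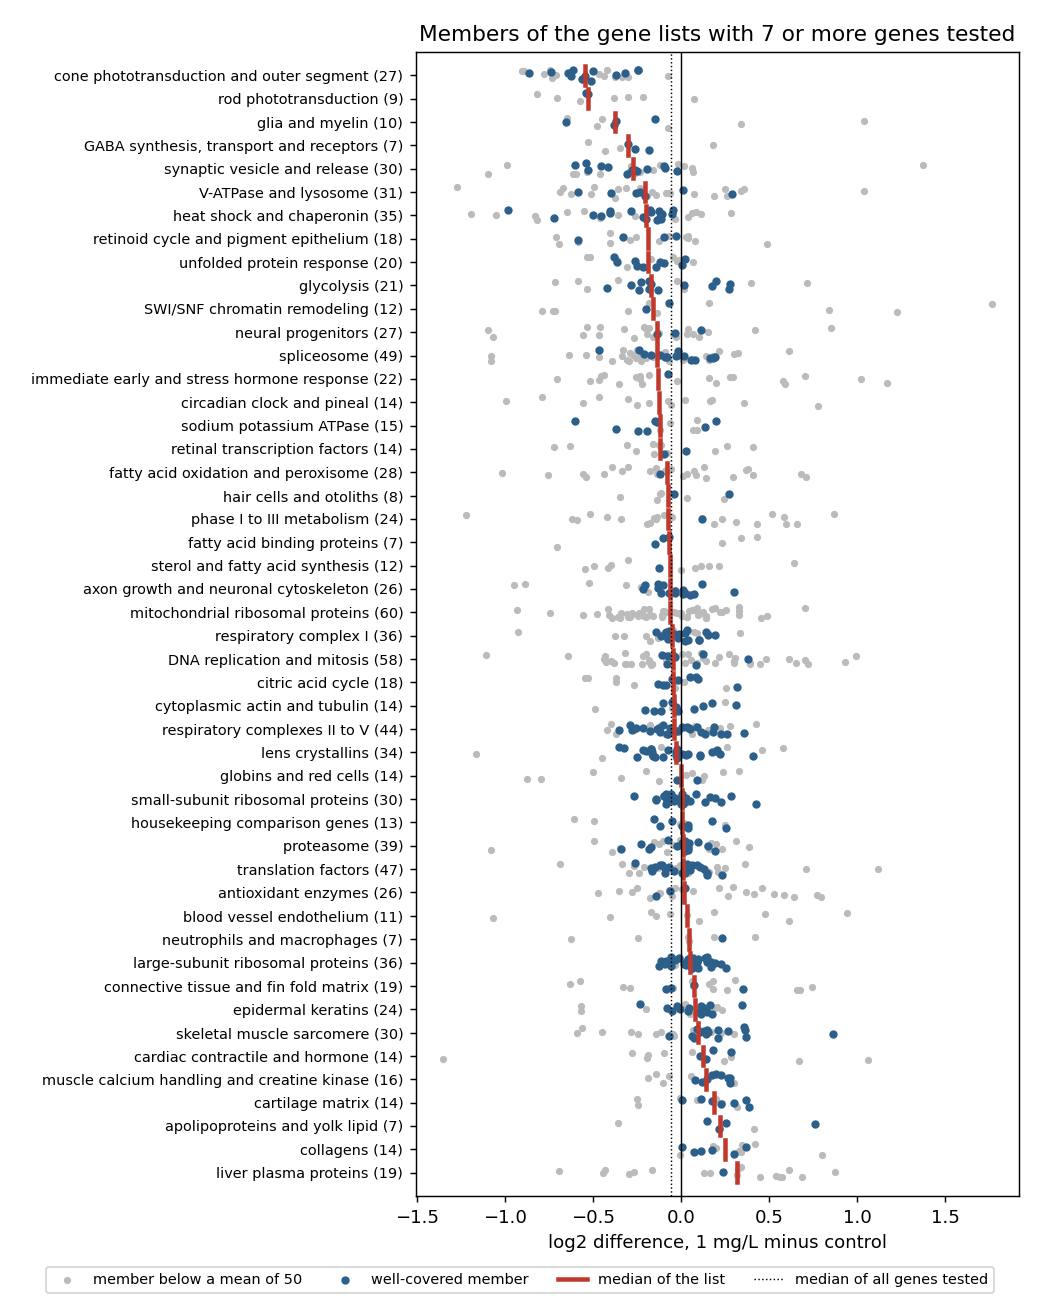
Log2 difference between 1 mg/L and control for each tested member of the gene lists with 7 or more tested genes (number in brackets), ordered by the list's median (red bar); blue points are well-covered members, grey points those with a mean below 50, and the dotted line is the median of all genes tested. Cone genes lie entirely below 0 with a median of -0.55, while ribosomal protein and lens crystallin genes are centred near 0.

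Lists of muscle, matrix and liver genes had medians above 0. ldb3a, which encodes a Z-disc protein of striated muscle, had the largest positive difference of the well-covered genes. It was at 84.4, 108, 70.7 and 52.2 in exposed pools and at 44.7, 40.4 and 40.1 in control pools, a difference of 0.86 (standard error 0.22, adjusted p = 0.718 in limma). Other sarcomere genes had smaller differences: the median over 30 genes was 0.10 (0.03 without control b). The most abundant members, mylpfa, actc1b and mylz3, had differences of 0.07, 0.06 and 0.11. Of the 16 well-covered members 15 were above 0 and 1 below, with a median of 0.15, against 42.4% above 0 of all well-covered genes. The summed value of that list was 24276 to 28263 in exposed pools, inside the control range of 20065 to 29091. Genes of muscle calcium handling and creatine kinase had a median of 0.14 over 16 genes (0.05 without control b). All 9 well-covered ones were above 0, and the summed values overlapped, at 7326 to 8802 in exposed and 5968 to 8896 in control pools. lasp1, an actin-binding protein gene, was at 117, 83.8, 83.6 and 92.9 against 67.4, 80.9 and 81.8. gamt, the last enzyme of creatine synthesis, was at 113, 112, 124 and 107 against 107, 77.2 and 92.8, and psma4, a proteasome subunit, was at 113, 131, 105 and 105 against 101, 105 and 101. In lasp1, gamt and psma4 the closest pools of both groups were nearly level, and their differences were 0.29, 0.31 and 0.15. The cardiac list had a median of 0.12 over 14 genes, and of -0.16 without control b. Its 4 well-covered members were all above 0, with a median of 0.16, against 42.4% above 0 of all well-covered genes. Among thinly covered members, actc1a was at 14.0 to 33.2 in exposed pools against 5.50 to 13.5 in control pools (111 reads in 7 pools). tnni1b went the other way (difference -1.35, standard error 0.51, 45 reads). Both were named after their values were seen.

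Collagens had 13 of 14 tested genes above 0, against 42.45% of all genes tested. Their median was 0.25 (0.17 without control b), but none had an unadjusted p under 0.05. col9a2, a cartilage collagen, was at 242, 335, 262 and 292 in exposed pools and at 313, 193 and 196 in control pools. The high control pool was control a, and the exposed pools lay above control b and c. The same order held for the cartilage gene matn1, at 171 to 228 in exposed pools and 218, 154 and 91.2 in control pools a to c. Cartilage genes as a list had a median of 0.19, which was 0.01 without control c.

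Liver and yolk lipid genes differed more between pools of 1 group than between groups. The liver plasma protein list had the highest median, 0.32 over 19 genes, with values between 0.10 and 0.63 when any 1 pool was left out. apoa2, an apolipoprotein of high density lipoprotein, was at 57.6, 112, 134 and 169 in exposed pools and at 133, 38.6 and 52.7 in control pools (difference 0.76, standard error 0.31). apoa1a, its partner in the same particle, was at 65.2 in exposed pool a and 226 in exposed pool c, and at 301 in control a and 72.6 in control b, a difference of 0.15 (standard error 0.34). For the apolipoprotein list the median turned from 0.22 to -0.12 without control b and reached 0.64 without control a. Its direction therefore rested on which control pool was kept.

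Ribosomal protein genes, the best covered group, did not separate 1 mg/L from control. The median difference was 0.05 over 36 large-subunit genes and 0.0025 over 30 small-subunit genes. Of these 66 genes 1, rps27.1, was higher at an unadjusted p under 0.05 and none was lower. Of all genes tested 0.976% were higher and 2.59% lower at that p. rps27.1 was at 927, 899, 889.6 and 748 in exposed pools and at 874, 401 and 756 in control pools, so that the low control b made the difference of 0.43 (standard error 0.20), which was 0.09 without it. Without control b the medians of both lists turned negative, to -0.07 and -0.15. Respiratory chain genes also lay near 0, with medians of -0.05 for complex I and -0.04 for complexes II to V. Epidermal keratins had a median of 0.08 over 24 genes, with krt4 at 4561 to 5492 in exposed pools and 4521 to 5166 in control pools. In glycolysis, aldocb, an aldolase of brain and retina, stood out from a list with a median of -0.17, which was -0.01 without control a: it was at 180.4, 152, 173 and 146 in exposed pools and at 209, 219.6 and 223 in control pools (difference -0.42, standard error 0.17). The spliceosome list had a median of -0.14 over 49 genes, with 4 lower at an unadjusted p under 0.05, against 2.59% of all genes tested. Its 16 well-covered members had a median of -0.02. Genes of xenobiotic metabolism (phases I to III) had a median of -0.07 over 24 genes (0.18 without control a), with 1 higher and 1 lower at an unadjusted p under 0.05, and fatty acid oxidation and peroxisome genes, targets of fatty acid sensing receptors, one of -0.08 over 28 genes.

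**Figure D4:**
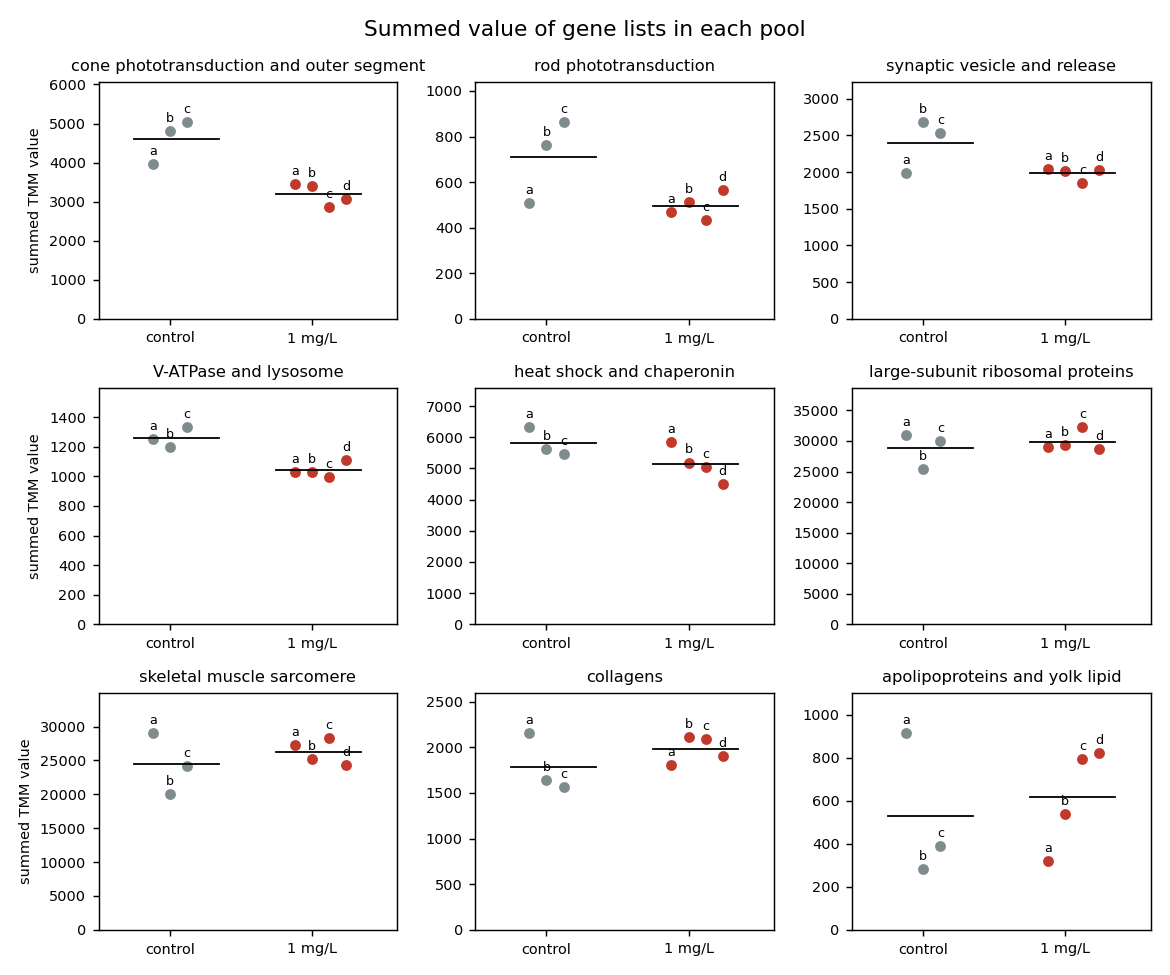
Summed TMM-normalized value of the tested genes of 9 gene lists in each control pool (grey) and each 1 mg/L pool (red), with pool letters; the black bar is the group mean and every axis starts at 0. The cone and V-ATPase lists do not overlap between groups, while control a and control b are the extremes of the muscle and apolipoprotein lists. Without atp6v0cb the V-ATPase list would overlap.

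Pools of 1 group were about as alike as pools of different groups. Over well-covered genes the mean correlation of an exposed pool with the other exposed pools was 0.959 to 0.969, that of a control pool with the other control pools was 0.954 to 0.966, and that of pools with the opposite group was 0.956 to 0.968. These correlations run across genes of each pool pair and share the level differences between genes, so they are given as a description. Control a and control b were the most distant pools on the first principal component. Control a had the lowest value of the control pools for cone, rod and synaptic lists and the highest for muscle, respiratory and apolipoprotein lists. The part of this spread in the differences above was not tested beyond leaving out each pool.

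A comparison within the exposed pools needs no control pool. The 1 mg/L pools were set against the mean of the 0.5, 2 and 10 mg/L groups, 12 pools, in 1 fit over 16 pools. limma called 0 of 5329 genes (0%), with a lowest adjusted p of 0.122. It called nupr1 without 1 mg/L pool b (adjusted p = 0.0538), and rpl24, rps19, rps28 and tomm6 without pool c (adjusted p = 0.0179 each). At an unadjusted p under 0.05 there were 122 genes higher at 1 mg/L (2.29%) and 217 lower (4.07%). This split depended on the method: edgeR on recovered reads gave 157 higher and 154 lower. Without 1 mg/L pool d limma gave 127 higher and 330 lower. Cone genes did not stand apart here: their median was -0.04, with 2 of 27 lower at an unadjusted p under 0.05. gngt2b averaged 749 ± 98.2 (SD, n = 4) at 1 mg/L and 912 ± 191 (SD, n = 12) in the other exposed pools, against 1141 ± 110.1 (SD, n = 3) in control pools, and opn1sw1 averaged 692 ± 74.2, 757 ± 142 and 1021 ± 75.0 in the same order.

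Of the gene lists, those of ribosomal proteins had the most genes with an unadjusted p under 0.05 in this second comparison. Their medians were -0.15 for the large subunit, with 33 of 36 genes below 0, and -0.18 for the small subunit, with 30 of 30 below 0. Of all genes tested 49.4% were below 0, and of the well-covered genes 61.7%. At an unadjusted p under 0.05, 15 and 16 genes were lower and none was higher, against 4.07% of all genes tested that were lower. Most ribosomal protein genes were well covered (34 and 30), and of all 745 well-covered genes 71 were lower and 25 higher. The 3 genes with the lowest adjusted p were rpl24, rps19 and rps28, named after their values were seen. rps19, a protein of the small subunit, was at 814, 955, 1022 and 796 in the 1 mg/L pools and averaged 1178 ± 91.8 (SD, n = 12) in the other exposed pools, a difference of -0.40 (standard error 0.09, adjusted p = 0.122 in limma). rpl24 was at 583, 567, 753 and 659.9, against 854 ± 88.2 (SD, n = 12) in the other exposed pools, a difference of -0.42 (standard error 0.09). Control pools lay between and beyond these values, with rps19 at 1315, 689 and 929. The medians stayed between -0.20 and -0.11 for the large subunit when any 1 of the 1 mg/L pools was left out. Respiratory complexes II to V, which pass electrons to oxygen and make ATP, had a median of -0.16 and 11 of 44 genes lower, and lens crystallins had a median of -0.13 and 8 of 34 genes lower at an unadjusted p under 0.05.

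**Figure D5:**
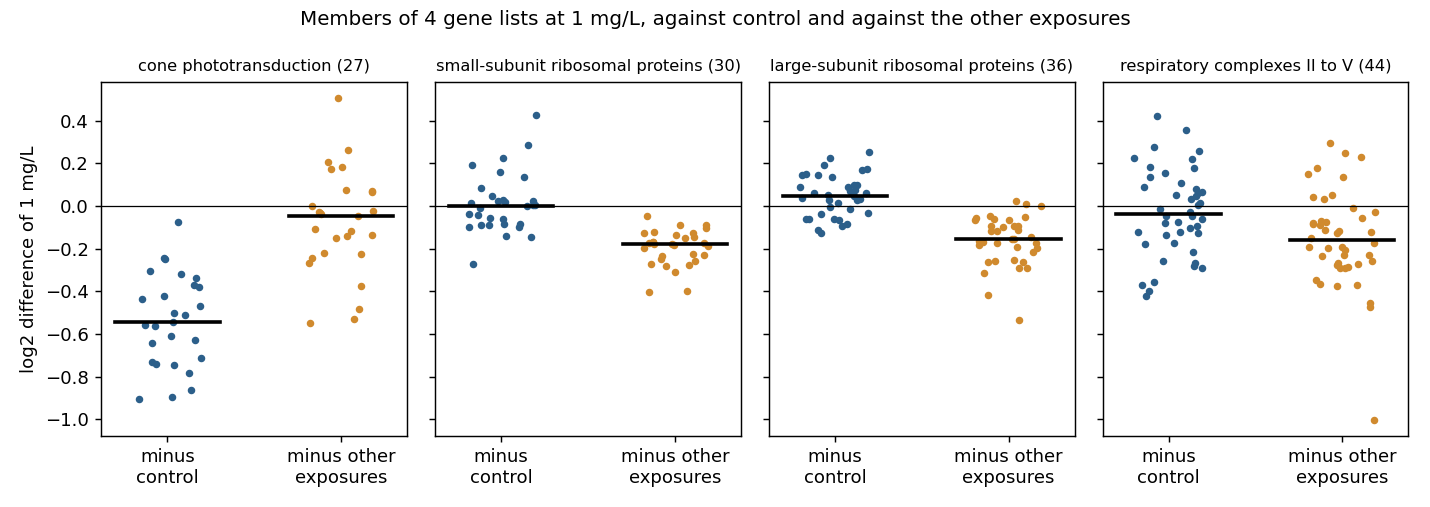
Log2 difference of 1 mg/L from control (blue) and from the mean of the other exposures (orange) for each tested member of 4 gene lists, with the number of genes in brackets and the median as a black bar. Cone genes have medians of -0.55 and -0.04, and small-subunit ribosomal protein genes have medians of 0.0025 and -0.18.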

How the data were processed

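Libraries were made from poly(A) RNA with oligo(dT) primers and molecular identifiers. The authors trimmed the reads (Trimmomatic 0.40), aligned them to GRCz10 (STAR), removed PCR copies (UMI-tools 1.1.2), counted reads per gene (HTSeq 0.13.5) and applied TMM. The sample records also name the genome build GRCz11. The deposited values are a signal: TMM-normalized expression of 9368 genes, in which zeros had been replaced by 0.5 reads. Apart from these, 100% of the values came out as whole reads (tolerance 0.001), and reads were recovered from them. Such low depth leaves low genes imprecise, which is why well-covered genes are given first.

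Genes with a mean above 2.75 over the 19 pools were tested with limma 3.58.1 (R 4.3.3), two-sided and with a trend, on log2(value + 0.5). A gene was called at a Benjamini-Hochberg adjusted p under 0.1. The deposited values sum to 253079 to 289824 per pool and are not CPM, so this filter equals 9.86 CPM. The filter of 2.75 CPM was added after seeing the data, as were edgeR fits leaving out each pool and scaling to the total of recovered reads. Other alternatives were 2 pseudocounts, other filters, zeros kept at 0, rescaling to CPM, quantile normalization, no trend, a replicate block, 1 fit over 5 groups, edgeR 4.0.16 and DESeq2 1.42.0 on recovered reads, and leaving out each pool. Tests were tried on simulated data.

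Gene lists, 57 in number, are described by counts and medians. Summed values are over the tested members of a list. Genes and lists were chosen with earlier results of these data known. Named genes are those called and the well-covered genes without overlap that had the largest differences, up to 15 in each direction. In each list, the 3 best covered members and well-covered members at an unadjusted p under 0.05 also count as named genes. Not all of these are printed, but counts over named genes include them. Other genes are marked as named after their values were seen, except tissue markers and genes called only under an alternative. Pools are of different embryos, and p-values weigh a difference against the spread between pools, which limma estimates in part from the other genes. pde6hb was matched by a RefSeq synonym. No test for differential expression by NOISeq was run, since it was not installed.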

Additional observations from a re-analysis of the deposited data

Results flagged for a closer look

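In 12 of 235 sets of 4 exposed pools (named genes and summed lists), 1 pool lay far from the other 3 by Dixon's criterion, and chance alone marks about 5% of such sets. Pool d was the distant one in 6 of them. It was low for atp1b3b (121.5, others 188.9 to 199.6) and high for elovl4b (44.8, others 24.4 to 26.9), hnrnpa0l (273.6, others 218.7 to 226.9), tyrp1b (154.3, others 113.5 to 117), the summed melanophore genes (265.7, others 233.6 to 237.9) and the summed xanthophore and iridophore genes (104, others 57.6 to 62). These 6 are not independent, since tyrp1b belongs to the melanophore list. Pool d was also the most deeply sequenced exposed pool, and the part of depth in these values was not tested. Pool a was high for the keratin gene cyt1l (2049, others 1367 to 1458) and for sox11a (255.2, others 196.1 to 202.9). Pool b was high for the pancreatic protease cpa5 (10.5, others 0.721 to 1.92) and for col22a1, listed as prp (66.3, others 30.7 to 34.6). For cpa5 this rests on 10 reads in the 4 exposed pools together. Pool c was high for the globin gene hbbe1.1 (59.12, others 26.9 to 30.0) and low for the summed synaptic list (1850, others 2020 to 2044). In hbbe1.1, hnrnpa0l and the summed melanophore genes the highest control pool lay above the distant exposed pool (108.5, 323.3 and 268.9). In elovl4b, sox11a and tyrp1b it was slightly below it (44.04, 252.7 and 150.2), and for atp1b3b the lowest control pool, at 126.2, was slightly above it.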

How the results depend on the processing

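The count of called genes stayed at 0 under all alternatives except these: 2 with a replicate block, 2 with edgeR without a filter, and 0 to 1 in limma and 0 to 3 in edgeR when a pool was left out. Besides the genes called without a pool, given above, they were ldb3a and atp6v1f (replicate block, limma, differences 1.04 and -1.81, adjusted p = 0.0932 each) and hsp90aa1.2 and ptgdsb.2 (edgeR without a filter, adjusted p = 0.00544 and 0.0316). The replicate letters do not pair the pools (correlations of same-letter deviations -0.03, 0.02 and -0.04), and under the replicate block exposed pool d adds nothing to the difference. Genes at an unadjusted p under 0.05 numbered 371 without a filter, 105 with a mean above 10, 307 with the replicate block, 334 with edgeR without a filter, 55 with DESeq2, and 122 to 286 in limma or up to 341 in edgeR when a pool was left out. Genes without overlap made up 3.49% of well-covered genes, 4.23% (72 genes) at a mean of at least 20, 2.78% (11 genes) at 100, and 5.77% to 16.0% when a pool was left out, since fewer pools can overlap. Against the other exposures, 3 genes were called with a pseudocount of 2, 3 without a filter, 3 with the replicate block, and 0 to 4 when a 1 mg/L pool was left out. For all other settings these totals kept within 1.5 times. Of the gene list medians, 33 of 1303 values moved by more than the spread between pools, and no named gene with an unadjusted p under 0.05 changed its direction. Depth limits what can be seen: the median gene tested had 88 reads in the 7 pools.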

Other observations

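Several tissues and functions with few well-covered genes were also read. Genes of red cells had a median difference of 0.001 over 14 genes, and those of neutrophils and macrophages one of 0.04 over 7 (0.33 without control a). Endothelial genes had a median of 0.03 over 11 genes. Exocrine pancreas had 4 genes tested, with a median of -0.52 that became -0.02 without control a and -1.23 without control b. The clock list had a median of -0.13 over 14 genes (-0.33 without exposed pool d, 0.04 without exposed pool a). For the immediate early and stress hormone list it was -0.13 over 22. With edgeR the medians of these lists were 0.10 and 0.01. For prostaglandin D synthases, ptgdsb.1 was at 56.8 to 78.7 in exposed pools and 81.8 to 90.1 in control pools, while ptgdsb.2 was at 49.5 in control c and at 6.01 to 18.4 in all other pools.

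Basic functions of dividing and growing cells lay near 0. DNA replication and mitosis genes had a median of -0.05 over 58 genes, translation factors 0.01 over 47, the proteasome 0.01 over 39 and mitochondrial ribosomal proteins -0.06 over 60. A list of housekeeping genes had a median of 0.01 over 13 genes. actb1, a cytoplasmic actin, was at 854 to 1138 in exposed pools and 908 to 1067 in control pools.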
